A study of Mus musculus with 16 samples.

Results

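CD127-negative effector and CD127-high memory CD8 T cells, sorted from the spleens of leukaemic mice with intact Il4i1, were compared on 8 of the 16 arrays of the series. These were the 4 arrays titled effector wild type (WT) and the 4 titled memory WT, and expression was compared across 22180 genes. The mice were female, of a strain the labels spell C56BL/6, and were bone marrow (BM) chimeras with WT marrow. They had received murine CLL cells from Eµ-TCL1 mice, a model in which the TCL1 oncogene, expressed in B cells, gives a leukaemia like chronic lymphocytic leukaemia (CLL). Cells were sorted from the spleen 5 weeks after the transplantation, the effector cells as CD44+CD127- and the memory cells as CD44high CD127high. The other 8 arrays hold the same subsets, 4 arrays each, from chimeras with Il4i1 knockout (KO) marrow that received the same leukaemia cells. All 4 groups thus came from leukaemia-bearing chimeras, and cells of leukaemia-free mice were not analysed here. In a chimera, host cells that do not derive from the marrow keep the host's genotype, which the labels do not give. Whether 1 sample is 1 mouse or a pool is not stated in the labels, and each p-value refers to the spread from sample to sample, which may be technical.

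CD127 is the alpha chain of the interleukin-7 receptor, encoded by Il7r. Interleukin-7 keeps resting T cells alive, and CD8 T cells that remain CD127-high after activation are those known to persist as memory, whereas strongly or repeatedly stimulated cells lose the receptor. Memory cells are known for factors and receptors of recirculation and survival, such as Lef1, Ccr7, S1pr1 and Bcl2, and cells under chronic stimulation for inhibitory receptors and the factors Tox and Prdm1.

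Sorting itself fixed Il7r and Cd44, so their values only describe the gates. Il7r read 3.83, 3.85, 4.02 and 4.46 on effector WT arrays 1 to 4 and 10.84, 10.29, 10.73 and 10.96 on memory WT arrays 1 to 4, all on the log2 scale of the deposited values. Cd44 read 6.03 to 6.28 on the effector and 6.74 to 6.88 on the memory arrays. The labelled cell type was checked with 9 measured markers of CD8 T cells, among them Cd3e, Cd8a and Cd8b1. Each of the 9 was above the array median on all 8 arrays, and 0 passed the test between the subsets. Cd8b1 read 11.42 to 11.58 in effector and 11.56 to 11.69 in memory cells, a difference in means of -0.10 (exact two-sided permutation p = 0.114). Cd8a was 0.38 higher in effector cells, with no overlap of the groups, at the smallest p that 4 against 4 arrays can give (exact two-sided permutation p = 0.0286), but an adjusted p of 0.063 in the fit across all genes.

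More genes were lower in effector cells than higher. A gene was called when its adjusted p in limma, with Benjamini-Hochberg adjustment over all genes, was under 0.05. In effector WT against memory WT, 204 genes (0.92%) were called higher and 511 (2.3%) lower, counts that include the sort genes. At a change of at least 2-fold as well, 29 genes (0.131%) were higher and 195 (0.879%) lower, so falls made up 71.5% of all 715 calls (3.22%) and 87.1% of the larger ones. The median log2 fold change over all genes was 0.0079. The groups did not overlap, in either direction, in 1422 genes with higher (6.41%) and 1508 genes with lower values (6.8%) in effector cells.

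These counts depended on single arrays, the rises more than the falls. The higher count was 107, 111, 93 and 69 without effector WT 1, 2, 3 and 4, and 63 and 89 without memory WT 1 and 3. The lower count was 332 without effector WT 4 and 296 without memory WT 1. Without the array that was left out, 63 to 147 of the 204 rises and 292 to 429 of the 511 falls were still called, and 0 changed direction. The 2-fold higher count fell to 19, 17 and 13 without effector WT 3, effector WT 4 and memory WT 1. Fitted on the 8 WT arrays alone, the test called 546 genes higher and 774 lower, with 189 and 490 of the original calls among them, and the share of falls was then 58.6%.

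**Figure D1:**
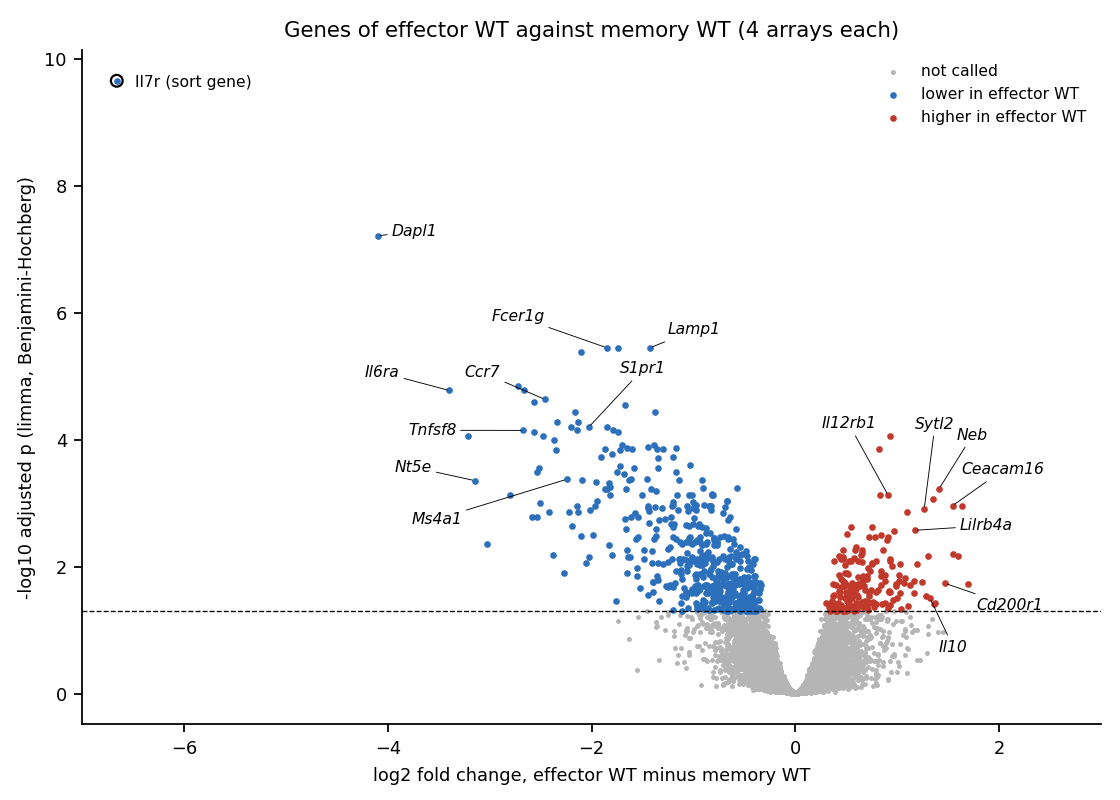
Each point is 1 of 22180 genes; the horizontal axis is the log2 fold change of effector WT minus memory WT (4 arrays each) and the vertical axis the -log10 of the limma adjusted p, with the dashed line at 0.05. The falls (blue, 511 genes) reach further from 0 than the rises (red, 204 genes): Dapl1 lies at -4.09, and the labelled rises lie between 0.91 and 1.55.

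Markers of other spleen cells moved with the same comparison and are given first, since they touch the results that follow. Counts of list members, here and below, compare with shares over all genes of 0.92% called higher and 2.3% called lower. When only the 12952 genes above the array median on at least 4 of the 16 arrays were fitted, 277 were called higher and 573 lower. Of 17 measured B and leukaemia cell markers, 0 were called higher and 12 lower in effector cells, and their median log2 fold change was -1.13. The mean of the 17 was 4.25, 4.31, 4.19 and 4.16 on effector WT arrays 1 to 4 and 5.86, 5.55, 5.31 and 5.10 on memory WT arrays 1 to 4. On the effector arrays 5 or 6 of the 17 markers were above the array median, and on the memory arrays 13 or 14. Ms4a1, which encodes CD20, read 3.50, 3.88, 3.002 and 3.30 against 6.46, 6.19, 5.08 and 4.93, below the array median in all effector and above it in all memory arrays. Ighm, the heavy chain of IgM, read 8.93, 9.31, 8.81 and 8.66 against 11.60, 11.03, 10.9999 and 10.75. Memory WT 1 and 2 thus carried the highest and memory WT 4 the lowest marker mean of the memory group, and every memory array exceeded every effector array.

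Of 22 measured myeloid markers, 0 were called higher and 6 lower, with a median of -0.33. Their mean ran from 4.85 to 5.03 on the effector and from 5.33 to 5.66 on the memory arrays. Fcer1g and Tyrobp, signalling adaptors of myeloid and natural killer receptors that activated T cells can also express, fell by 1.85 (SE 0.15, adjusted p = 3.52e-06) and 1.66 (SE 0.23, adjusted p = 0.000584). Lyz2, the lysozyme of macrophages and granulocytes, fell by 1.35 (SE 0.29, adjusted p = 0.0138), while Itgam, S100a8 and C1qa were not called. Among 12 markers of CD4 and regulatory T cells 1 was higher (Izumo1r, 0.91) and 1 lower (Il2ra, -0.65), and Foxp3 (-0.60, adjusted p = 0.175) and Cd4 (-0.52, adjusted p = 0.159) were not called. Of 9 markers of NK and gamma delta T cells, Cd7 was higher and Il23r lower, and Ncr1, the NK receptor NKp46, was not above the array median on 7 of the 8 arrays. Both calls among the CD4 markers were lost when single arrays were left out, that of Izumo1r without each of the 8 WT arrays and with median centring, that of Il2ra without each WT array other than effector WT 1 and memory WT 2 (adjusted p up to 0.128 and 0.159). Platelet and erythroid markers had 0 calls among 8.

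The genes of B cells among the larger falls belong beside these markers. The 15 largest falls with non-overlapping groups held Fcmr (-3.21), Ly6d (-2.58), Spib (-2.53), Ly86 (-2.52) and Fcrl5 (-2.51), which are known from B cells. The same 15 also held Aff3 (-2.72), Pdlim1 (-2.66) and Treml2 (-2.54). Spib is also 1 of the 17 markers. In bulk samples, fewer cells of a type and less RNA of it per cell cannot be told apart. With the mean of the 17 markers as a covariate, an alternative added after the data were seen, 0 genes were called higher and 1 lower, as the covariate differed between the subsets and the standard errors were 2.66 times as large at the median. Of the 68 called members of the T cell lists, 50 had estimates within 1.5 times the reported value, 9 were smaller and 8 larger by more than that, and 1 took the other sign. Among the smaller ones were the receptors Ccr7 (-1.47 with the covariate, -2.46 without) and Il12rb2 (-1.08 and -2.56), the integrin chain Itgae (-0.57 and -1.30), Il9r (-0.33 and -0.94), Il12rb1 (0.345 and 0.91), Lilrb4a (0.28 and 1.18), Cd101 (0.29 and 0.96) and Id2 (0.10 and 0.37). Among those within 1.5 times were Dapl1 (-3.42 and -4.09), Il6ra (-2.93 and -3.40), S1pr1 (-2.10 and -2.02) and Nt5e (-2.95 and -3.15). Outside the T cell lists, Fcmr went from -3.21 to -0.47, Apol7c from -2.80 to -0.96, Insrr from 1.60 to 1.04, Lgals4 from 1.55 to 0.9998 and Baiap3 from 1.10 to 0.43. With the covariate, Ly86 was at -0.94 and Fcrl5 at -0.38, and Ly6d (0.89) and Spib (0.47) changed sign. Aff3 (-2.71), Pdlim1 (-2.64) and Treml2 (-1.995) stayed within 1.5 times their values. The part of B cell RNA in these differences was not tested.

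**Figure D2:**
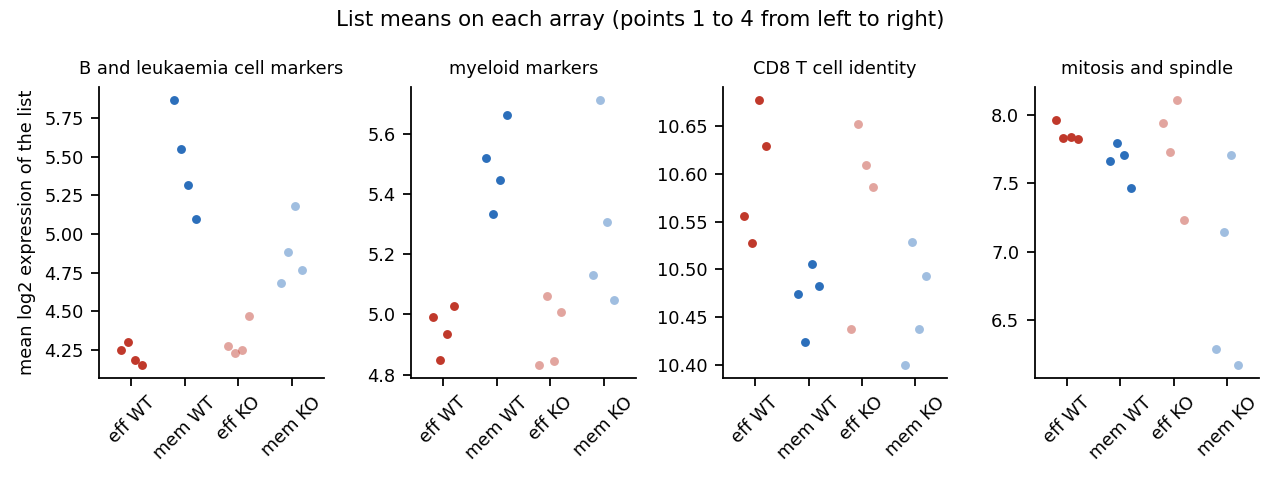
Points are arrays, in the order 1 to 4 from left to right; the vertical axes give the mean log2 expression of all measured members of a list, for effector and memory (eff, mem) arrays of both genotypes. The B and leukaemia cell markers lie at 4.16 to 4.31 on the effector WT and at 5.10 to 5.86 on the memory WT arrays, and the CD8 T cell markers at 10.53 to 10.68 and 10.42 to 10.51.

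The called transcription factors of quiescent memory cells were lower in effector cells. Of 19 measured members, 0 were called higher and 6 lower, and 15 of the 19 had negative values (median -0.41). Id3, an inhibitor of E proteins found in memory precursors, read 3.36, 3.94, 3.67 and 4.03 in effector and 5.66, 5.21, 5.91 and 5.61 in memory cells. It fell by 1.85 (SE 0.19, adjusted p = 6.2e-05), and all effector arrays were below the array median. Lef1, a factor of the Wnt pathway kept by naive and stem-like cells, read 8.57, 8.40, 8.76 and 8.40 against 9.78, 9.33, 9.68 and 9.49. Its fall of 1.04 (SE 0.13, adjusted p = 0.00025) left no overlap.

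Klf2, which drives the receptors of recirculation, read 5.67, 5.64, 6.23 and 6.03 against 7.41, 7.04, 7.26 and 7.40, a fall of 1.38 (SE 0.24, adjusted p = 0.00367). Satb1, a chromatin organiser, fell by 1.66 (adjusted p = 0.00249), and Foxp1, a factor of T cell quiescence, by 0.79 (adjusted p = 0.00461). Bach2, a repressor of effector genes, fell by 1.02 (adjusted p = 0.0234), and its call was lost without effector WT 3 or 4 or memory WT 1 or 3 (adjusted p up to 0.0888). Foxo1 (-0.26, adjusted p = 0.202), the factor upstream of Klf2 and Il7r, was not called. Tcf7 was not tested, as its probe set was not assigned to a single symbol.

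Receptors of homing, egress and adhesion were called lower where they were called. Of 30 measured members, 0 were called higher (2 with quantile normalization) and 11 lower, with a median of -0.32. The lower count was 7 without effector WT 1 and without effector WT 2. Ccr7, the receptor that leads cells into lymph nodes and T cell zones, read 4.74, 5.38, 5.50 and 5.23 in effector and 8.21, 7.43, 7.74 and 7.31 in memory cells. Effector cells were thus 5.5-fold lower (log2 -2.46, SE 0.23, adjusted p = 2.29e-05), with a gap of more than 1 log2 unit between the groups.

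S1pr1, the receptor for egress into blood and lymph, read 7.55, 7.29, 8.04 and 7.71 against 9.88, 9.27, 9.77 and 9.78. It fell by 2.02 (SE 0.21, adjusted p = 6.2e-05). Gpr183, an oxysterol receptor that positions lymphocytes in the spleen, read 5.67, 5.81, 5.98 and 5.95 against 7.65, 7.17, 7.74 and 8.02, a fall of 1.79 (adjusted p = 7.07e-05) with no overlap. Ly6c2, part of the Ly6C antigen of memory and effector CD8 T cells, fell by 1.83 (adjusted p = 0.000475). The integrin chains Itga1 (-1.48), Itgae (-1.30), Itgb1 (-1.05), Itga6 (-0.69) and Itgb7 (-0.57) were all called lower, as was the chemokine receptor Cxcr3 (-0.68, adjusted p = 0.0139). Itga1 and Itgae, with Cd69 (-0.65, adjusted p = 0.047), are also known from tissue-resident T cells. Cxcr6, a receptor of activated and resident cells, was not called: it read 11.12 to 11.26 in effector and 10.30 to 10.94 in memory cells (0.59, adjusted p = 0.202).

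Nearly all cytokine receptors that were called fell: of 25 measured members, 1 was called higher and 10 lower (median -0.27). Il6ra, the alpha chain of the interleukin-6 receptor, read 4.97, 5.03, 4.54 and 5.16 in effector and 8.91, 7.98, 8.68 and 7.71 in memory cells. The difference was 10.5-fold (log2 -3.40, SE 0.31, adjusted p = 1.66e-05). The 2 chains of the interleukin-12 receptor moved in opposite directions. Il12rb2, the signalling chain, read 3.53, 3.63, 3.60 and 3.09 against 6.68, 6.30, 5.69 and 5.43, and fell by 2.56 (SE 0.24, adjusted p = 2.54e-05). Il12rb1, the chain shared with the interleukin-23 receptor, read 8.17, 8.41, 8.71 and 8.70 against 7.51, 7.41, 7.59 and 7.83, and rose by 0.91 (SE 0.13, adjusted p = 0.000741). Neither pair of groups overlapped, though for Il12rb2, 1 of the 15 largest falls, non-overlap was a condition of the choice. With the B cell marker covariate both differences were smaller by over 1.5 times, at -1.08 for Il12rb2 and 0.345 for Il12rb1.

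Il18r1, the interleukin-18 receptor, fell by 1.65 (adjusted p = 0.00551), Il4ra by 0.99 (adjusted p = 0.00168) and Il9r by 0.94 (adjusted p = 0.00405). Receptor chains of both interferon types fell too, Ifnar2 by 0.98 (adjusted p = 0.00106), Ifngr2 by 0.93 (adjusted p = 0.00909) and Ifngr1 by 0.69 (adjusted p = 0.00749). Tgfbr1 fell by 0.74 (adjusted p = 0.02). Il2ra fell by 0.65 (adjusted p = 0.0447), the call that single arrays ended as given above, and its estimate was 0.02 with the B cell marker covariate.

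Dapl1, a small protein known from naive and memory CD8 T cells and reported to restrain the factor NFAT, had the largest change of the named genes. It read 4.79, 4.96, 4.50 and 4.83 in effector and 9.31, 8.62, 8.999 and 8.53 in memory cells, a 17.1-fold difference (log2 -4.09, SE 0.23, adjusted p = 6.04e-08). The highest effector array lay more than 3 log2 units below the lowest memory array. Dapl1 was listed with the T cell receptor complex and proximal signalling, where 2 of 26 members were called higher and 2 lower (7.69% each, median 0.15). The phosphatase gene Ptpn6, which encodes SHP-1, fell by 0.95 (adjusted p = 0.0023). Zap70, the kinase at the receptor, rose by 0.45 (SE 0.09, adjusted p = 0.00733) and Dgkz, a kinase that removes diacylglycerol, by 0.43 (SE 0.08, adjusted p = 0.00687). The Dgkz call was lost when all its probe sets were averaged (adjusted p = 0.472).

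**Figure D3:**
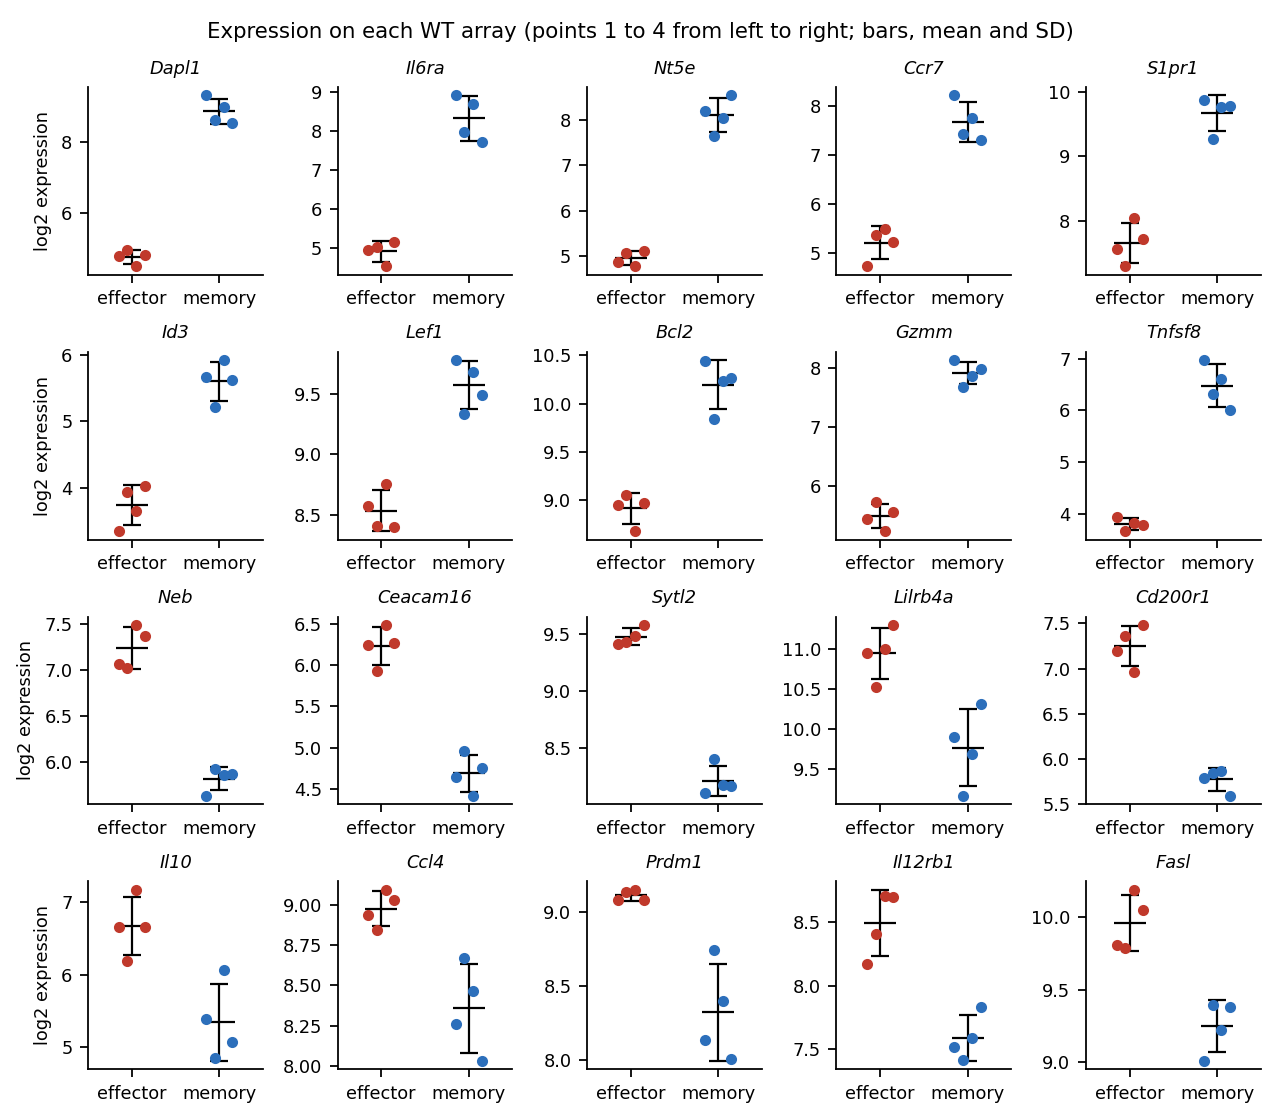
Each panel is 1 gene; points are the log2 expression on effector WT (red) and memory WT (blue) arrays 1 to 4 from left to right, with the mean and SD of 4 arrays, and the vertical axes do not start at 0. The groups do not overlap in any of the 20 panels. For the genes taken from the 15 largest rises or falls, such as Dapl1, Il6ra, Neb and Sytl2, non-overlap was a condition of the choice. Within memory cells Prdm1 runs from 8.01 to 8.74 and Lilrb4a from 9.16 to 10.32.

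Costimulatory genes divided. Of 22 measured members, 2 were called higher (9.09%) and 4 lower (18.2%), with a median of -0.04. Tnfsf8, the ligand of CD30, read 3.94, 3.67, 3.83 and 3.79 in effector and 6.97, 6.32, 6.62 and 6.00 in memory cells. It fell by 2.67 (SE 0.29, adjusted p = 7.07e-05) from above to below the array median. Slamf6, a surface marker of stem-like and memory cells, read 9.90, 9.85, 9.99 and 10.02 against 10.96, 10.58, 10.92 and 11.22, a fall of 0.98 (SE 0.15, adjusted p = 0.00107). Crtam, an adhesion receptor induced on activation, fell by 1.64 (adjusted p = 0.0069) and Tnfrsf26 by 1.82 (adjusted p = 0.000741). Cd27 rose by 0.47 (adjusted p = 0.00707) and Cd7 by 0.58 (adjusted p = 0.0072), both with no overlap of the groups.

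Among 18 measured survival and death genes 0 were called higher and 2 lower. Bcl2, the anti-apoptotic gene that interleukin-7 maintains, read 8.96, 9.05, 8.68 and 8.97 in effector and 10.44, 9.84, 10.23 and 10.26 in memory cells. It was 2.42-fold lower (log2 -1.28, SE 0.20, adjusted p = 0.00177), with no overlap. Pim2, a survival kinase, fell by 1.34 (adjusted p = 0.0161), a call lost without memory WT 1 (adjusted p = 0.0645). The pro-apoptotic Bcl2l11, which encodes BIM, was not called (0.29, adjusted p = 0.522). Of 16 cell cycle brakes 3 were called lower and 0 higher: Pik3ip1, a negative regulator of PI3 kinase (-1.34, adjusted p = 0.000279), the CDK inhibitor Cdkn2d (-0.86, adjusted p = 0.0069) and the antiproliferative Tob1 (-0.83, adjusted p = 0.00128).

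Few inhibitory receptors passed the test, most of them as rises. Of 19 measured members, 3 were called higher (15.8%) and 1 lower (5.26%), 12 were positive, and the median was 0.50. Lilrb4a, an inhibitory receptor with cytoplasmic ITIMs, read 10.96, 10.53, 11.002 and 11.30 in effector and 9.90, 9.16, 9.69 and 10.32 in memory cells. It rose by 1.18 (SE 0.20, adjusted p = 0.00265), and the lowest effector array lay just above the highest memory array. Cd200r1, the receptor of CD200, read 7.20, 7.36, 6.96 and 7.48 against 5.79, 5.85, 5.87 and 5.59. Its rise was 1.47 (SE 0.32, adjusted p = 0.0183). Cd101, found on terminally exhausted cells, rose by 0.96 (SE 0.24, adjusted p = 0.0338).

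Among the best-known checkpoint receptors there were no calls in the fit on all 16 arrays. Its spread was estimated from WT and KO arrays together. The SD of the list mean was 0.08 in effector WT and 0.03 in memory WT. In effector KO it was 0.26 and in memory KO 0.20. Pdcd1, which encodes PD-1, read 10.38, 10.49, 10.25 and 10.28 in effector and 9.62, 10.18, 9.58 and 9.46 in memory cells (0.64, SE 0.40, adjusted p = 0.537). Havcr2, which encodes TIM-3, read 9.67, 9.69, 9.81 and 9.66 against 8.42, 9.07, 8.65 and 8.26 (1.10, SE 0.41, adjusted p = 0.198). Lag3 read 9.83, 10.01, 9.83 and 9.87 against 8.90, 9.78, 8.98 and 8.43 (0.87, SE 0.28, adjusted p = 0.122). In these 3 genes the groups did not overlap, and memory WT 2 was the memory array nearest to the effector arrays. Tigit (0.43, adjusted p = 0.644), Ctla4 (0.50, adjusted p = 0.341) and Entpd1, the ectoenzyme CD39 (0.97, adjusted p = 0.0502), were not called either. Nt5e, the ectoenzyme CD73, went the other way: it read 4.88, 5.07, 4.78 and 5.11 against 8.21, 7.65, 8.04 and 8.54, and fell 8.87-fold (log2 -3.15, SE 0.42, adjusted p = 0.000437). CD73 acts on the product of CD39, making adenosine from AMP.

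The count for this list rested on the arrays and on the spread used. Called higher were 9 members when the 8 WT arrays were fitted alone and 1 member without effector WT 2, effector WT 4 or memory WT 1. The call of Cd200r1 was lost without each of these 3 arrays (adjusted p up to 0.066), and that of Cd101 without each WT array other than effector WT 1 (up to 0.113). The call of Lilrb4a was kept under each alternative other than the B cell marker covariate, with which its estimate was 0.28.

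Transcription factors of chronic activation showed smaller differences: 3 of 23 were called higher (13%) and 1 lower (4.35%), and 19 were positive (median 0.33). Prdm1, which encodes BLIMP-1, read 9.08, 9.13, 9.15 and 9.08 in effector and 8.13, 8.74, 8.40 and 8.01 in memory cells (0.79, SE 0.20, adjusted p = 0.0392). Ikzf3, which encodes Aiolos, rose by 0.45 (adjusted p = 0.00746) and Id2, which antagonises E proteins in effector cells, by 0.37 (adjusted p = 0.0456). Tbx21, which encodes T-bet, fell: it read 7.09, 6.76, 6.99 and 6.83 against 8.17, 8.28, 8.17 and 8.12 (-1.27, SE 0.29, adjusted p = 0.0202), with no overlap. Its relative Eomes read 10.001 to 10.10 against 9.59 to 9.78 and was not called (0.33, adjusted p = 0.0722), nor was Tox (0.48, adjusted p = 0.16).

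Several of these calls were lost without single arrays. Prdm1 was not called without each WT array other than memory WT 2 (adjusted p up to 0.134). Id2 was not called without each WT array other than memory WT 4 (up to 0.156) or with median centring, and Tbx21 without effector WT 2, 3 or 4 or memory WT 1 or 3 (up to 0.066). The WT arrays alone gave 8 members higher and 1 lower.

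Cytotoxic genes gave 2 calls in each direction among 22 (9.09% each, median 0.19). Gzmm, a granzyme of innate-like and memory cells, read 5.45, 5.72, 5.24 and 5.56 in effector and 8.13, 7.68, 7.87 and 7.98 in memory cells. It was 5.36-fold lower (log2 -2.42, SE 0.37, adjusted p = 0.00138). Lamp1, a protein of the membrane of lytic granules and lysosomes, read 7.26, 7.14, 7.34 and 7.13 against 8.71, 8.46, 8.68 and 8.72, and fell by 1.43 (SE 0.11, adjusted p = 3.52e-06). Fasl, the Fas ligand, read 9.80, 9.79, 10.19 and 10.04 against 9.01, 9.39, 9.22 and 9.38 and rose by 0.70 (SE 0.15, adjusted p = 0.014), a call lost without effector WT 3, effector WT 4 or memory WT 1 (up to 0.0621). The other rise, Unc13d (0.36, adjusted p = 0.0398), which primes granules for release, was lost under 10 of the alternatives, quantile normalization among them.

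The main killing genes did not pass. Gzmb read 11.28 to 11.62 in effector and 10.74 to 11.25 in memory cells (0.50, adjusted p = 0.147), Prf1 11.02 to 11.41 against 10.59 to 11.37 (0.32, adjusted p = 0.434), and Gzma 7.26 to 8.08 against 7.89 to 9.82 (-1.07, adjusted p = 0.39). The groups overlapped in Prf1 and Gzma. Outside the list, Sytl2 and Baiap3, which both encode proteins of vesicle docking and release, were among the 15 largest rises. Sytl2 read 9.42, 9.43, 9.48 and 9.58 against 8.10, 8.40, 8.17 and 8.16 (1.27, SE 0.19, adjusted p = 0.00121). Baiap3 read 8.51, 8.33, 8.72 and 8.88 against 7.21, 7.61, 7.38 and 7.85 (1.10, SE 0.17, adjusted p = 0.00139).

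Of 18 cytokines and chemokines, 2 were called higher (11.1%) and 1 lower (5.56%), with a median of -0.09. Il10, the immunosuppressive cytokine, read 6.66, 6.19, 7.17 and 6.65 in effector and 5.39, 4.85, 6.07 and 5.08 in memory cells, a rise of 1.32 (SE 0.32, adjusted p = 0.0312). The lowest effector and the highest memory array were close to each other, and the call was lost without each WT array other than effector WT 2 and memory WT 3 (adjusted p up to 0.111). Ccl4 read 8.94, 8.84, 9.09 and 9.03 against 8.26, 8.67, 8.47 and 8.03 and rose by 0.62 (adjusted p = 0.0143), a call lost without effector WT 3, effector WT 4 or memory WT 1 (up to 0.0567). Ltb, which encodes lymphotoxin beta, fell by 0.64 (SE 0.10, adjusted p = 0.00163). Ifng read 10.42 to 10.54 in effector cells; in memory cells it read 9.62, 9.62 and 9.54 on arrays 1, 3 and 4 and 10.38 on array 2, and it was not called (0.69, adjusted p = 0.15). Tnf (-0.58, adjusted p = 0.243) and Il2 (-1.03, adjusted p = 0.0616) were not called.

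The named rises outside the lists came from unrelated families. Neb, which encodes the giant sarcomere protein nebulin, read 7.06, 7.02, 7.48 and 7.36 in effector and 5.63, 5.93, 5.86 and 5.86 in memory cells (1.41, SE 0.20, adjusted p = 0.000584). Ceacam16, of the carcinoembryonic antigen family, read 6.25, 5.93, 6.49 and 6.27 against 4.64, 4.95, 4.41 and 4.75 (1.55, SE 0.23, adjusted p = 0.00108). Insrr, a receptor kinase related to the insulin receptor, had the largest rise of the named genes: it read 6.56, 7.19, 6.11 and 6.49 against 4.63, 5.74, 4.63 and 4.94 (1.60, SE 0.30, adjusted p = 0.00678). Non-overlap of the 2 groups was a condition for naming these 3 genes.

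Lgals4, which encodes galectin-4, rose by 1.55 (adjusted p = 0.00636), the kinase gene Dclk2 by 1.30 (adjusted p = 0.00667) and the integrin chain Itgad by 1.12 (adjusted p = 0.019). Med7, a subunit of the Mediator complex, rose by 1.36 (adjusted p = 0.0384), a call lost without each WT array other than memory WT 2 (up to 0.125). The calls of Itgad (without effector WT 3, effector WT 4 or memory WT 1, adjusted p up to 0.0753), and, without each WT array other than memory WT 4, of the small nucleolar RNA Snora30 (1.17, up to 0.081) and the pseudogene Pisd-ps3 (1.11, up to 0.139) were lost as well. Slc2a4rg-ps (1.20), another pseudogene, kept its call, and its estimate was -0.31 with the B cell marker covariate. Predicted genes and RIKEN clones were 11.8% of the genes called higher and 3.72% of those called lower, against 13.3% of all genes tested. Among annotated classes, 17 of the 204 genes called higher (8.33%) and 7 of the 511 called lower (1.37%) were long non-coding RNAs. Their share of the genes not called was 8.86%, so the rises held them at about the share of uncalled genes.

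**Figure D4:**
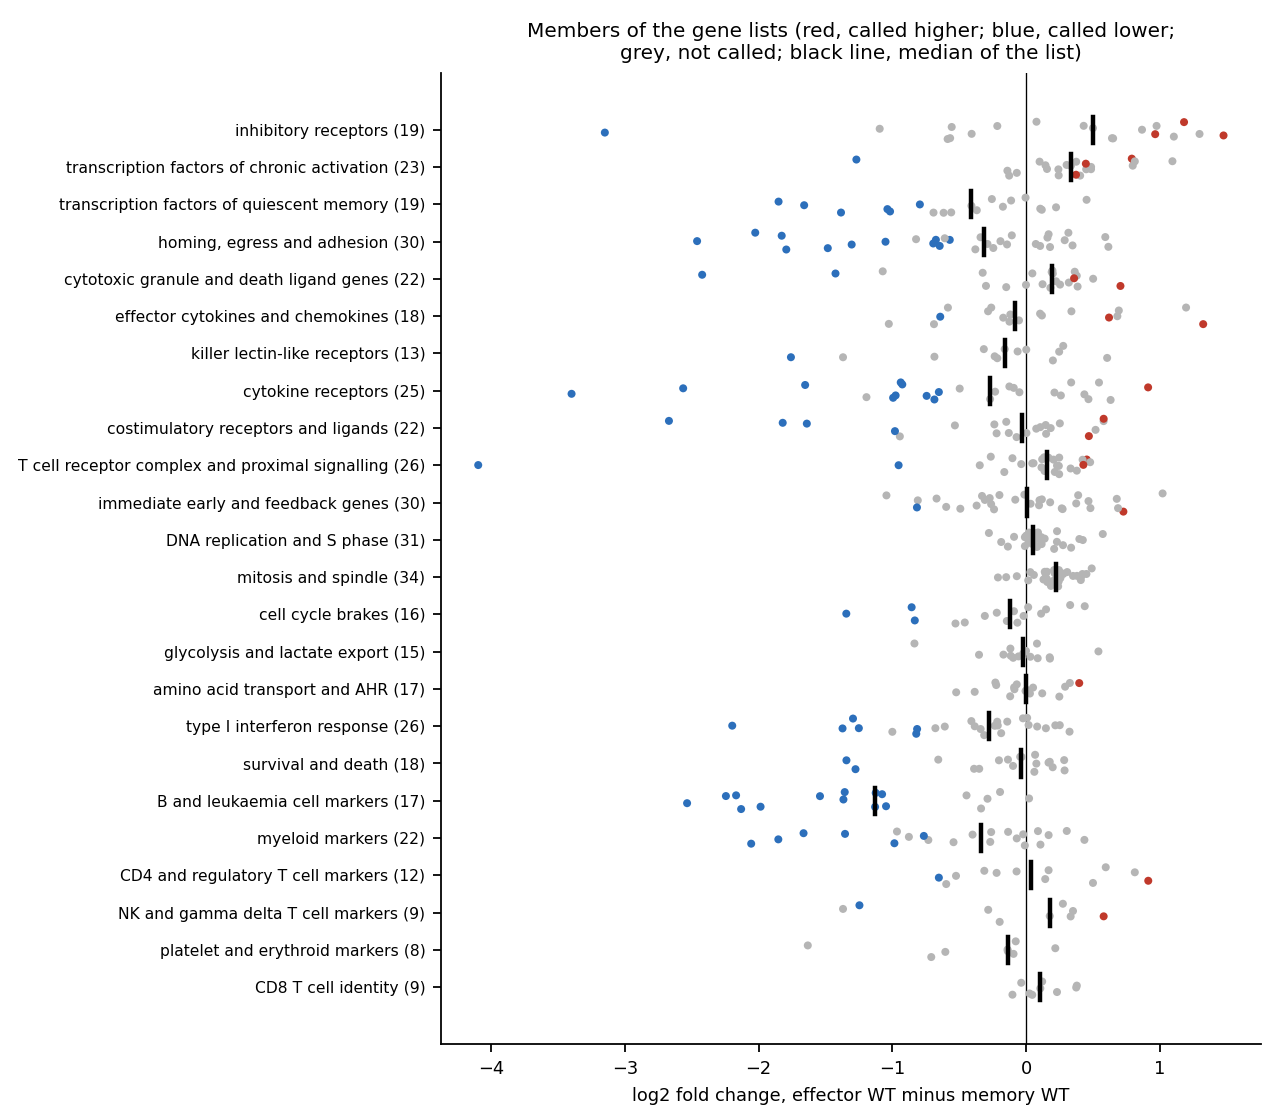
Each row is a gene list with its number of measured members, each point a member placed by its log2 fold change of effector WT minus memory WT, and the black bar the list's median. Rises (red) reach 1.47 for Cd200r1, while falls (blue) reach -4.09 for Dapl1; the lists of DNA replication, mitosis and glycolysis hold no called member.

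Proliferation and metabolism differed little on these arrays. In limma 0 of 31 genes of DNA replication (median 0.05) and 0 of 34 genes of mitosis (median 0.22) were called. The mitosis genes were positive in 31 of 34 members, and Mki67 read 10.04 to 10.20 in effector and 9.77 to 10.16 in memory cells (0.24, SE 0.23, adjusted p = 0.737). The mean of the mitosis list was 7.83 to 7.96 on the effector and 7.46 to 7.79 on the memory arrays, so that the groups did not overlap. With the WT arrays alone, 4 mitosis and 2 replication genes were called higher. Of 15 genes of glycolysis and lactate export 0 were called, and Slc16a1, a lactate transporter, was nearest to it (-0.84, adjusted p = 0.0555).

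Of 17 genes of amino acid transport and the aryl hydrocarbon receptor, which the products of the Il4i1 enzyme can engage, 1 was called. Slc1a5, a glutamine transporter, rose by 0.40 (adjusted p = 0.019), a call lost without effector WT 1, effector WT 4 or memory WT 3 (adjusted p up to 0.0731) and when probe sets were averaged (0.831). Ahr itself was at 0.29 (adjusted p = 0.752) and its target Cyp1b1 at -0.01. Immediate early and feedback genes had 1 rise and 1 fall among 30 (3.33% each), where 0.92% and 2.3% of all genes were called. Rgs1, a brake on chemokine receptors, rose by 0.73 (adjusted p = 0.0288), a call lost without effector WT 1, 3 or 4 or memory WT 1 or 3 (up to 0.102), and Socs1, a feedback inhibitor of cytokine signalling, fell by 0.82 (adjusted p = 0.000741). Of 13 killer lectin-like receptors, Klra6 was called lower (-1.76, adjusted p = 0.034), and leaving out each WT array other than memory WT 2 ended that call (up to 0.133). Klrg1, the receptor of short-lived effector cells, read 8.16 to 9.09 against 7.29 to 8.84 (0.60, adjusted p = 0.324).

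Genes of the type I interferon response were lower or not called. Of 26 measured members, 0 were called higher and 6 lower, and 19 were negative (median -0.27). Oasl2, of the oligoadenylate synthetase family, read 5.15, 4.28, 4.33 and 4.76 in effector and 7.06, 6.42, 6.78 and 7.05 in memory cells (-2.20, SE 0.36, adjusted p = 0.00224). Usp18, which removes ISG15 and dampens the receptor, read 6.17, 6.25, 6.41 and 6.32 against 7.71, 7.57, 7.60 and 7.77 (-1.37, SE 0.23, adjusted p = 0.00322). Both genes were lower on every effector array. Cmpk2 fell by 1.29, Oas3 by 1.25, the tetherin gene Bst2 by 0.82 (SE 0.12, adjusted p = 0.000716) and Rtp4 by 0.82, the last not without effector WT 1 or 2 or memory WT 1, 3 or 4 (adjusted p up to 0.119). Isg15 (-0.24, adjusted p = 0.744), Ifit1 (-1.0004, adjusted p = 0.105), Irf7 (-0.61, adjusted p = 0.308) and Mx1 (0.32, adjusted p = 0.719) were not called.

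Ifitm2, an interferon-inducible membrane protein that blocks virus entry, was among the 15 largest falls. It read 5.58, 4.90, 5.20 and 5.95 in effector and 8.33, 7.35, 7.95 and 8.25 in memory cells (-2.56, SE 0.28, adjusted p = 7.47e-05). Apol7c, of the apolipoprotein L family, read 4.65, 4.37, 3.87 and 4.14 against 7.47, 7.32, 6.93 and 6.51 (-2.80, SE 0.40, adjusted p = 0.000735). Non-overlapping groups were a condition for the choice of both genes. With the B cell marker covariate the estimate was -0.96 for Apol7c and -2.46 for Ifitm2. The part of B cell RNA in either fall was not tested. Apol7c was not called in KO (-1.27).

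Interferon acts through the interferon-stimulated response element, a promoter sequence bound by interferon regulatory factors. Its core was searched as GAAANNGAAA on both strands, overlapping matches allowed, in the RefSeq promoters of build GRCm38.p6, from 250 bases before to 50 after each start. To show what such a match looks like, 60 bases are printed from the promoters of 4 genes that fell, all on the minus strand and all before the start, 5′ to 3′ along the gene with the matched bases in capitals. They lie at chr15:77533336-77533395 for Apol7c, chr7:140955973-140956032 for Ifitm2, chr5:120777700-120777759 for Oas3 and chr8:71537568-71537627 for Bst2.
Apol7c: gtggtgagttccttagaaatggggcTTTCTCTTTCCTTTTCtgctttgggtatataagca
Ifitm2: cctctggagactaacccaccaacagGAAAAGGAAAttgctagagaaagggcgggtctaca
Oas3: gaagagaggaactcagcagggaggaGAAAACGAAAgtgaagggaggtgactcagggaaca
Bst2: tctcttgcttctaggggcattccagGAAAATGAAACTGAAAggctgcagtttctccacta
Apol7c and Bst2 each hold 2 overlapping matches, and in Apol7c these lie on the other strand. Of the 16990 tested genes with a promoter in the table, 657 (3.87%) held a match. The share was 7.83% (31 of 396) among genes called lower, 11.5% (17 of 148) among those lower by at least 2-fold, 3.29% (5 of 152) among genes called higher and 52.6% (10 of 19) in the type I interferon list. Of the 6 members of that list called lower, 4 had a promoter in the table, and 2 of those held a match. The 17 include Ebf1 and Fcrla, which are among the B cell markers, Cybb, which is among the myeloid markers, and the Fc receptor gene Fcgr4, known from myeloid cells. They also include Ifitm2, Ifitm3 (-1.82), Oas3 and Igtp (-1.20), of interferon-inducible families. Oasl2 and Cmpk2, which also fell, held no match in this window. These shares describe the promoters, and no difference between them was tested.

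Further groups were picked after their values had been seen, so their counts describe them and support nothing. Of 9 measured MHC class II genes, which B cells and other antigen-presenting cells express, 8 were called lower (median -1.42). H2-Ab1 read 8.51, 8.40, 7.96 and 8.35 in effector and 10.20, 10.26, 9.73 and 9.71 in memory cells. It fell by 1.67 (SE 0.16, adjusted p = 2.79e-05), beside the B cell marker means given above, and the part of those cells in this fall was not tested. Of 21 genes of nuclear speckles and splicing, 9 were called higher and 21 were positive (median 0.48). Malat1, the long non-coding RNA of nuclear speckles, read 10.18, 10.13, 10.39 and 10.37 against 9.26, 8.85, 9.23 and 9.66 (1.02, SE 0.21, adjusted p = 0.0136), and Nktr and Luc7l2 rose by 0.84 each.

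Among 13 interferon-inducible GTPase genes, 6 were called lower, all of them immunity-related GTPases, and none of the guanylate-binding proteins was called. Iigp1 read 5.98, 5.84, 5.70 and 5.76 against 8.71, 7.95, 8.27 and 7.71 and was 5.05-fold lower (log2 -2.34, SE 0.24, adjusted p = 5.16e-05). Igtp fell by 1.20, Irgm2 by 0.86 and Irgm1 by 0.60. The guanylate-binding protein genes lay on the other side of 0 in part, Gbp8 with a 1.78-fold higher mean and no overlap (log2 0.83, adjusted p = 0.0941), Gbp4 with 1.32-fold and Gbp7 with 1.19-fold higher means, none of them called. With the WT arrays alone, 1 of the 13 was called higher. Of 63 genes with ribosomal protein symbols, 6 were called lower and 51 were negative (median -0.20), with Rpl13 at -0.35 and Rpl14 at -0.40. Rpl6l, among the 6, is annotated as a pseudogene. The 63 also hold the transcribed pseudogene Rps4l and dim members such as Rpl10l, above the array median on 0 arrays.

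The same contrast in the KO chimeras used 8 other arrays, within the same fit. There, 696 genes (3.14%) were higher and 953 (4.3%) lower in effector cells. Of the 204 genes called higher in WT, 202 had the same direction in KO and 135 were called, which is 66.2% of the WT calls and 19.4% of the KO calls. Of the 511 called lower, 504 had the same direction and 346 were called, 67.7% of the WT and 36.3% of the KO calls. Not 1 of the 715 was called in the opposite direction. The median log2 fold changes of these genes were 0.61 in WT and 0.59 in KO for the rises, and -0.87 and -0.75 for the falls, with the WT values chosen for their size.

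Among the 15 largest rises 14 were called in KO, and among the 15 largest falls 11. Dapl1 was at -3.80 and Il6ra at -3.97 in KO, Neb at 2.02 and Ceacam16 at 1.55. The 4 falls not called were Apol7c (-1.27), Ly6d (-1.08), Spib (-0.95) and Fcrl5 (-0.70), the last 3 of them genes known from B cells. Fcmr and Ly86, the other falls named above as known from B cells, were called lower in KO. In KO, 3 of the 17 B and leukaemia cell markers were called lower, with a median of -0.37, and their mean was 4.68 to 5.18 on the memory KO arrays against 5.10 to 5.86 on the memory WT arrays. Inhibitory receptors had 9 rises and 2 falls in KO (median 1.09), and mitosis genes 16 rises (median 0.91). Pdcd1 (1.71, adjusted p = 0.0144), Havcr2 (2.28, adjusted p = 0.00266) and Lag3 (2.03, adjusted p = 0.00037) were called there.

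A difference between the genotypes in the effector against memory contrast was not shown for any gene. The interaction term of limma called 0 genes (0%), with 1296 genes at an unadjusted p under 0.05 and a lowest adjusted p of 0.3. Calls in 1 genotype and not in the other, among the checkpoint receptors and the mitosis genes as among the B cell genes, therefore do not show that the contrast differed.

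**Figure D5:**
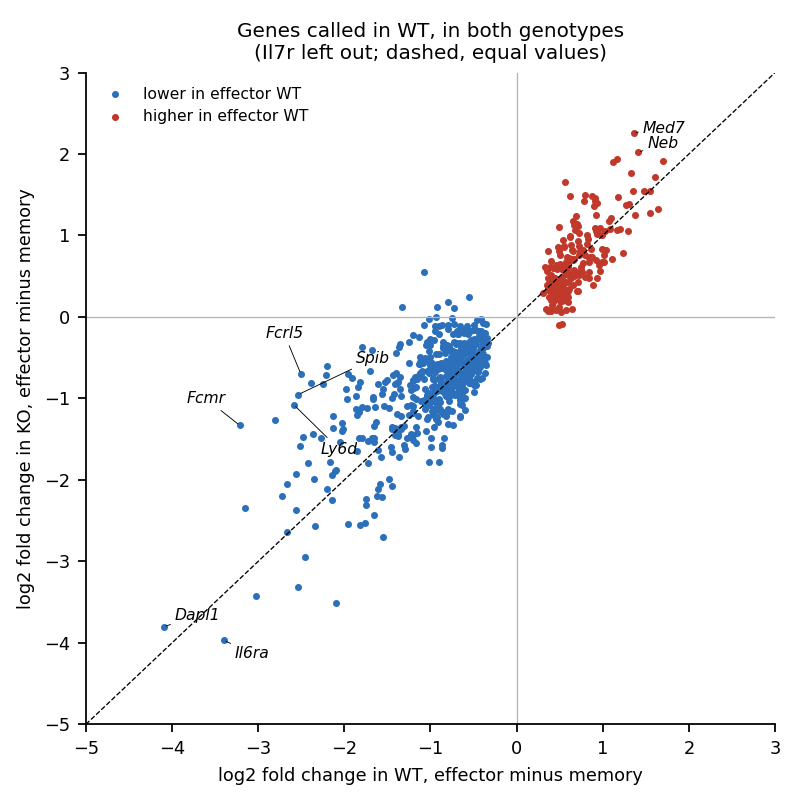
Each point is a gene called in effector WT against memory WT, without Il7r; the horizontal axis is its log2 fold change in WT and the vertical axis that in KO, effector minus memory, and the dashed line marks equal values. Of the rises (red) 202 of 204 and of the plotted falls (blue) 503 of 510 have the same sign in KO, and Fcmr (-3.21 and -1.33), Ly6d, Spib and Fcrl5 lie above the line.

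Array medians over all probe sets lay between 4.12 and 4.22 over all 16 arrays. Correlations over genes were 0.9922 to 0.9943 within effector WT, 0.9876 to 0.9925 within memory WT and 0.9832 to 0.9874 between them. Precision is limited by the number of arrays.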

How the data were processed

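RNA of sorted spleen CD8 T cells was amplified from 1 ng with the Affymetrix GeneChip WT Pico kit and measured on 1-colour arrays, per the labels' protocols. The deposited values of 41345 probe sets were treated as log2, a base inferred from their range of 0.74 to 14.05. The authors' normalization is not given in the sources used here. No detection call was used. Of the probe sets, 23521 carried exactly 1 gene symbol and were used, 1814 carried several (Tcf7 lies on none with 1 symbol), and 16010 were not listed. Where a gene had more than 1 probe set (1082 genes), the brightest over all arrays stood for it, which left 22180 genes.

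A linear model with a mean for each of the 4 groups was fitted to all 16 arrays with limma 3.58.1 (R 4.3.3; 12 residual degrees of freedom, prior 4.23), two-sided, with Benjamini-Hochberg adjustment over all genes and a threshold of 0.05. Errors are standard errors (SE) of this fit. The arrays and the 24 gene lists (18 of T cell functions, 6 of cell type markers) were chosen with earlier results of these data known, and 4 further groups after the values were seen. Named genes were, per direction, the 15 with the largest change among genes that passed and did not overlap, without predicted genes and sort genes, in each list the 6 members of lowest p, and well-known members whatever they did. Alternatives were the WT arrays alone, a replicate block, quantile normalization, median centring, a filter on dim genes, a trended robust prior, averaged probe sets, and leaving out each WT array or effector KO 4. The pipeline was tested on simulated data.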

Additional observations from a re-analysis of the deposited data

Results flagged for a closer look

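Within 368 groups of 4 arrays (160 genes and 24 list means, in each WT subset), 22 (5.98%) had 1 array far from the other 3, where chance gives about 1 in 20. Of these, 9 were memory WT 2, and 0 were memory WT 1. In memory WT 2, 4 genes were high: Ifng (10.38, others 9.54 to 9.62), Dgkz (9.89, others 9.70 to 9.71), Sh2d2a (11.32, others 10.99 to 11.03) and Dusp5 (9.23, others 8.78 to 8.79). The same array was low in Snora30 (4.10, others 4.63 to 4.71), Lamp1 (8.46, others 8.68 to 8.72), Socs1 (7.22, others 7.49 to 7.55), Socs3 (5.01, others 5.90 to 5.96) and Cd2 (9.93, others 10.18 to 10.23).

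Among the other memory arrays, Slc7a1 (7.55) and the mean of the DNA replication list (7.49) were low on memory WT 4, and Gp9 was high on memory WT 3 (6.45). Effector WT 1 was high in Clspn (6.25), Izumo1r (9.58) and the mean of the mitosis list (7.96) and low in Il9r (4.04). Effector WT 2 was high in Ptpn6 (8.99) and Il23r (2.47) and low in Klrd1 (9.37). Crtam was low on effector WT 3 (6.50), and Klrc1 (6.49) and Cdc6 (6.74) were low on effector WT 4.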

How the results depend on the processing

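Quantile normalization, array median centring and averaged probe sets left the counts over all genes and over all list members within 1.5 times their values; centring gave 79.6% falls among the calls. With the replicate block, 258 genes were higher and 536 lower and 0 passed the interaction; of the named genes, Bach2 (adjusted p = 0.0649), Id2 (0.0667), Unc13d (0.0691) and Il2ra (0.0831) were not called with it. Same-numbered WT arrays deviated together with correlations of 0.0871 to 0.239, each of the 8 correlating best with its own number, and KO arrays with 0.0178 to 0.147; the numbers were not taken as a pairing. The WT arrays alone gave 546 higher, 774 lower, 49 higher at 2-fold, and 49 list members higher (17 in the reported fit). List members higher were 26 under the dim filter (12952 genes) and 26 with the trended robust prior. Without effector KO 4, 350 genes were higher (39 at 2-fold) and 687 lower, with 29 list members higher. Leaving out 1 WT array gave 63 to 182 higher, 296 to 517 lower, 13 to 38 higher at 2-fold and 7 to 20 list members higher.

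The B cell marker covariate left 0 higher and 1 lower gene, 0 and 1 at 2-fold, 0 list members in either direction, and 213 higher and 264 lower in KO; 74 called genes changed sign. Of the named genes, those that reversed, all under this covariate, were Ly6d (0.89), Spib (0.47), Bank1 (0.52), Cd79b (0.15), Ms4a1 (0.057), Il2ra (0.0186), Klrc1 (0.19), Pgam1 (0.22), Slc2a1 (0.23), Bbc3 (0.23), Slc2a4rg-ps (-0.31), Pisd-ps3 (-0.43), Klrg1 (-0.48), Klrd1 (-0.39), Cish (-0.43), Cflar (-0.60), Slc1a4 (-0.0208), Sox13 (-0.0062) and Cd2 (-0.042). Spib, Bank1, Cd79b and Ms4a1 are members of the mean used as the covariate, so their reversals are not independent of it. The covariate differs between the subsets, which widens the errors. Other causes were not tested. Over the named genes, values kept direction and side of the threshold in 2413 refits, were no longer called in 209 and newly called in 74. Probe sets with low signal were not filtered, and no signal over background was used.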

Other observations

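Probe sets outside the gene tests carried calls in the same contrast. Fitted over all 41345 probe sets, 15 of the 1814 with several symbols were higher in effector WT and 14 lower (1.6% in all), and 22 and 30 of the 16010 that the probe table does not list (0.325%), against 92 and 345 of the 23521 with 1 symbol (1.86%). Among microRNA genes, 1 was called higher, 0 were called lower and 477 were not called. The call was Mir1188 (0.34, SE 0.09, limma adjusted p = 0.0495), just under the threshold. Its effector arrays read 4.22 to 4.30 and its memory arrays 3.80 to 4.07, close to the array medians of 4.12 to 4.22. Mir342 read 4.04 to 5.46 in effector and 5.72 to 6.95 in memory cells and was not called (-1.74, SE 0.50, adjusted p = 0.0716). Both probe sets are of the gene, so precursor and mature forms cannot be told apart.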
